A study of Danio rerio with 8 samples.

Results

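Chemokines and interleukins are secreted proteins through which cells steer and activate leukocytes, and their receptors are the surface proteins that receive them. The genes described here are the zebrafish (Danio rerio) chemokine ligands, chemokine receptors, interleukins and interleukin receptors. They were chosen by name, as symbols that begin with ccl, cxcl, ccr, cxcr, xcr, ackr or il followed by a digit, and by a sum of at least 10 reads over the 6 heart libraries. Of 31953 gene IDs in the files, 136 matched by name and 104 also passed the count minimum. The 104 comprised 54 ligands (37 chemokines and 17 interleukins), 49 receptors (25 for chemokines and 24 for interleukins) and the enzyme gene il4i1. A further 19 IDs had 1 to 9 reads and 13 had none. The highest below the minimum were ccl27a, il21r.2, IL1RAPL2 and a CCR6 ID, each with 9 reads, and the lowest above it were ccl38a.4 with 10 and CCR7, il23r, IL10 and ccr12b.1 with 12 each.

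RNA sequencing was done on hearts of zfpm1 mutant fish (3 libraries) and of control fish (3 libraries), all of the TU strain at 21 days post fertilisation (dpf). A further pair of libraries is labelled as 36 hours post fertilisation (hpf) embryos, 1 zfpm1 mutant and 1 control. zfpm1 encodes a transcriptional cofactor, known as FOG1 in mammals, that binds GATA factors and is needed for red cell and platelet formation in mice. The submitters looked for the genes that zfpm1 controls as the embryo forms and the heart chambers mature. The labels used here give neither the mutant allele nor whether a library is 1 heart or a pool. The p-values weigh the difference between groups against the spread among libraries within a group, which the test estimates in part from all genes. Part of that spread may be technical.

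Chemokines fall mainly into the CC and CXC families, named after the spacing of their first cysteines, and signal through G protein coupled receptors. Atypical receptors (ACKR) bind chemokines without that signalling and remove them. Most interleukin receptors are pairs of chains that signal through JAK kinases and STAT factors, whereas the IL-1 family signals towards NF-kB. In the heart these molecules are known mainly for bringing macrophages and neutrophils to injured or inflamed tissue, and cxcl12 and cxcr4 also for guiding migrating cells during vessel development.

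The heart libraries held 7614329 to 9909966 gene counts in mutants and 8197337 to 9632464 in controls. zfpm1 itself (ZFPM1, ENSDARG00000041572) was at 62.4, 53.0 and 92.1 CPM (read counts scaled to a common library size) in mutant hearts, against 51.3, 42.4 and 53.3 CPM in control hearts, so its RNA level did not separate the genotypes (log2 fold change 0.50, SE 0.23, edgeR adjusted p = 0.241). The files labelled as embryo entered no test. The embryo-labelled mutant file has the same total of all lines as control heart 1 (22649056), and the embryo-labelled control file the same as mutant heart 1 (19276348). Among the genes described here with at least 50 reads in the embryo-labelled file, control heart 1 held a median of 0.496 times the reads of the embryo-labelled mutant file (25 genes, range 0.404 to 0.557). Mutant heart 1 held a median of 0.504 times those of the embryo-labelled control file (58 genes, range 0.321 to 0.583). The files of each pair also share their number of reads not uniquely aligned (2907502 and 2130930). Reads in no feature were 9.53% of the embryo-labelled mutant file and 10% of the embryo-labelled control file. In control heart 1 and mutant heart 1 they were 47.5% and 48.8%. If the files of a pair hold the same reads, 1 of their labels is wrong, and which one was not tested. Calls that were lost without both heart libraries numbered 1 are given below. So are fold changes of called genes that moved by over 1.5 times without them. CPM values below were scaled by TMM, a normalisation of library sizes. They take no account of gene length, so levels are compared between libraries and not between genes.

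Many of these genes were higher in zfpm1 mutant hearts, and none passed the test as lower. Of the 62 that passed a filter on low counts, 22 rose (edgeR quasi-likelihood test, Benjamini-Hochberg adjusted p under 0.05). Over all 16707 genes tested, 9.43% were called, 7.02% as higher and 2.42% as lower. Among ligands 10 of 30 tested rose, which is 33.3%, and among receptors 11 of 31 rose, which is 35.5%. The median log2 fold change was 1.68 for tested ligands and 0.99 for tested receptors, against -0.008 for all tested genes. With no filter the medians were 1.76 for all 54 ligands and 1.30 for all 49 receptors. The median of all 25309 genes with any heart read, a set with a lower count minimum, was 0.039. The filter can admit a gene by its mutant levels alone. Of the 62 tested genes, 7 reached the filter's level in no control library (1.16 CPM by library size, before TMM scaling). Among them were the called genes cxcl11.3, il13, ccr12b.2 and il4i1, which passed the filter only through their levels in mutants. Over all 104 genes, tested or not, the pooled level was higher in mutants for 48 of 54 ligands and 43 of 49 receptors. Among all genes with at least 10 heart reads that share was 52.7%. The mutant libraries lay above all control libraries in 25 of 54 ligands and 24 of 49 receptors, against 15.8% of all genes with at least 10 reads, and below them in 0 ligands and 1 receptor, against 11.1%. Without control library 3 the counts called were 4 ligands and 6 receptors, and without control library 1 they were 5 and 7. Without control library 2 they were 8 and 7, without mutant library 2 they were 6 and 8, and without both libraries numbered 1 they were 8 and 6. Among all tested genes, 443 of 17477 were called as higher without control library 3 and 733 of 17518 without control library 1. Those called as higher were 756 of 17538 without control library 2 and 878 of 17224 without mutant library 2. Without both libraries numbered 1 they were 876 of 16922, beside 1172 of 16707 with all libraries. Over the omissions of 1 library, calls in either direction were as low as 604, without control library 3, and 1034, without control library 2.

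Genes that mark macrophages and neutrophils were also higher in the mutant hearts. Of the macrophage markers, 13 of 14 tested rose and their summed level was 813 to 1330.1 CPM in mutants, against 216 to 391 CPM in controls. Of the neutrophil markers, 3 of 5 tested rose, with sums of 69.7 to 146 CPM in mutants and 10.3 to 21.4 CPM in controls. The B cell gene blnk rose as the only tested member of its list. The sum of that list was 10.1 to 12.4 CPM in mutants and 1.59 to 4.04 CPM in controls. Most of it was blnk itself, with 294 reads in mutants and 56 in controls, so the sum adds little to that gene. Of the untested members, ighm had 15 reads in mutants and 3 in controls, cd79a 6 and 1, and cd79b 3 and 1. PAX5 and cd37 had reads only in controls. None of 4 tested T and NK cell markers passed the test, although mutant library 2 stood at 94.4 CPM for their sum, mutant libraries 1 and 3 at 15.7 and 16.3 CPM and controls at 8.69 to 16.8 CPM. All 8 liver markers rose, with 2074 to 3803 CPM in mutants and 117 to 134 CPM in controls. All 6 tested erythroid markers fell, with 34.8 to 108 CPM in mutants and 5663 to 9439 CPM in controls, and so did all 3 tested thrombocyte markers, with 2.35 to 6.75 CPM in mutants and 38.8 to 40.9 CPM in controls. The heart muscle markers were present in every library, at a sum of 13947 to 24224 CPM in mutants and 29687 to 35087 CPM in controls, and none of the 7 tested passed the test. These bulk samples do not show which cells or tissues the reads came from. More leukocytes per heart and more RNA per leukocyte cannot be told apart in them. The part of the marker differences, those of the liver genes included, in the results below was not tested.

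**Figure D1:**
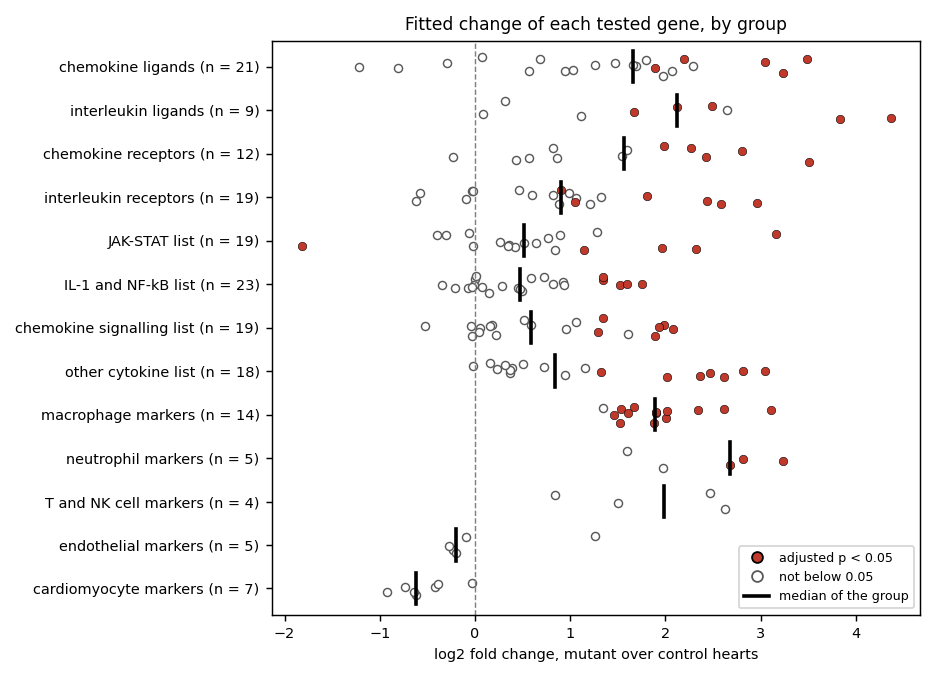
Log2 fold change of mutant over control hearts (horizontal axis) for each tested gene, with 1 row for each class of ligands and receptors, for signalling lists and for cell markers. Filled points have an edgeR adjusted p under 0.05 and black bars are medians. The bars of the ligand and receptor rows lie at 1.66, 2.12, 1.57 and 0.90, above those of the JAK-STAT, IL-1 and NF-kB and chemokine signalling lists. Those of the macrophage, neutrophil and T and NK cell markers lie at 1.89, 2.68 and 1.98.

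The chemokine ligands that rose belonged to both the CC and the CXC family. The CC chemokine gene ccl34a.4 (ENSDARG00000090873) was at 21.3, 23.4 and 18.2 CPM in mutant hearts, against 2.81, 6.41 and 4.41 CPM in control hearts. The lowest mutant library was well above the highest control library, and the rise (log2 2.2, SE 0.32, adjusted p = 0.00383) was called under every alternative tried. The other CC genes were less even. The level of ccl35.1 (ENSDARG00000103466) was 9.74, 13.1 and 17.6 CPM in mutants, against 1.47, 5.55 and 3.91 CPM in controls (log2 1.89, SE 0.46, adjusted p = 0.0353). The groups did not overlap, but without control library 1 or 3 or mutant library 2 or 3 the adjusted p was 0.0544, 0.129, 0.0752 and 0.112. For ccl33.3 (ENSDARG00000099401) the mutant libraries held 4.70, 22.6 and 4.82 CPM, against 1.59, 1.48 and 0.757 CPM in controls (log2 3.05, SE 0.71, adjusted p = 0.0295). Mutant library 2 stood far above the other mutants, and without it the log2 fold change was 1.89 with an adjusted p of 0.0755. Leaving out any control library also ended that call (adjusted p 0.0662 to 0.13).

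Among CXC ligands, cxcl8a (ENSDARG00000104795), the zebrafish counterpart of interleukin-8 and a neutrophil attractant, was at 39.4, 5.74 and 4.33 CPM in mutants, against 0.734, 1.60 and 2.02 CPM in controls. Every mutant library was above every control library, but mutant library 1 carried most of the reads. The log2 fold change was 3.49 (SE 0.89, adjusted p = 0.0411), and 1.80 without mutant library 1 (adjusted p = 0.102). Without any control library the adjusted p was 0.108 to 0.128, and without both libraries numbered 1 the log2 fold change was 1.48 (adjusted p = 0.152). The tandem copies cxcl8b.1 and cxcl8b.3 were left out by the filter on low counts. The level of cxcl8b.1 was 4.48, 0.675 and 0.193 CPM in mutants and 0.122, 0.493 and 0.126 CPM in controls, and that of cxcl8b.3 was 4.59, 0.563 and 0.77 CPM in mutants and 0.856, 1.36 and 0.126 CPM in controls. Mutant library 1 was thus the highest for all 3 cxcl8 genes. It was also the highest of the mutant libraries for the summed neutrophil markers (146, 116 and 69.7 CPM), whose part in the result was not tested.

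The gene cxcl11.3 (ENSDARG00000102514) belongs to a tandem family named after CXCL11, which in mammals is an interferon-induced ligand of CXCR3. It was at 3.02, 4.39 and 5.78 CPM in mutants, against 0.856, 0 and 0.504 CPM in controls (log2 3.24, SE 0.78, adjusted p = 0.0338). All mutant libraries were above all controls, and without control library 3 or mutant library 2 or 3 the adjusted p was 0.135, 0.0795 and 0.102. The log2 fold change was 4.06 without control library 1 and 4.28 without both libraries numbered 1. Its tested family member cxcl11.6 was at 2.13, 1.35 and 1.35 CPM in mutants and 0, 0.740 and 0.378 CPM in controls, and did not pass the test (log2 2.07, adjusted p = 0.171). The other family members were left out by the filter. Of these, cxcl11.4 and cxcl11.5 had 29 and 20 reads in mutants, against 2 each in controls, which gives pooled ratios of 12.4 (exact 95% counting interval 3.15 to 108) and 8.59 (2.09 to 75.8). The counts of cxcl11.7 were 19 in mutants and 7 in controls, and those of cxcl11.1 were 13 and 4. Reads of such tandem copies may have been split or dropped in the authors' counting.

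The remaining tested chemokine ligands did not pass the test. Those with the most reads were cxcl18b and CXCL14, beside ccl34a.4 described above. The gene cxcl18b (ENSDARG00000075045) encodes a neutrophil attractant that is induced at sites of mycobacterial infection in zebrafish. It was at 47.6, 17.4 and 11.7 CPM in mutants, against 5.63, 10.4 and 7.69 CPM in controls (log2 1.69, SE 0.50, adjusted p = 0.0731). The groups did not overlap. It was called without mutant library 3 (log2 2.03, adjusted p = 0.0309), and without mutant library 1 its log2 fold change was 0.90 (adjusted p = 0.195), and 0.71 without both libraries numbered 1. CXCL14 (ENSDARG00000056627), an epithelial chemokine, was at 32.0, 7.54 and 14.6 CPM in mutants, against 7.83, 10.5 and 9.71 CPM in controls. The groups overlapped (log2 0.95, SE 0.46, adjusted p = 0.256), and the log2 fold change was 0.26 without mutant library 1 and 0.15 without both libraries numbered 1. The level of cxcl20 was nearly level between the groups, at 13.0, 14.4 and 11.5 CPM in mutants and 11.7, 16 and 9.21 CPM in controls (log2 0.07, adjusted p = 0.916). Only ccl44, ccl39.6 and ccl38.1 of the 21 tested chemokine ligands had a negative log2 fold change, and none of them passed the test. For ccl44 the levels were 0.783, 2.03 and 1.06 CPM in mutants, against 3.06, 3.95 and 2.02 CPM in controls (log2 -1.22, adjusted p = 0.208). For ccl39.6 they were 5.26, 3.49 and 7.70 CPM in mutants, against 6.36, 12.8 and 9.71 CPM in controls (log2 -0.81, adjusted p = 0.254). The CC genes ccl20b, ccl34b.4, ccl34b.9, ccl36.1 and ccl39.7 had log2 fold changes of 0.57 to 1.80 and adjusted p of 0.16 to 0.664, and only ccl20b had groups that did not overlap.

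**Figure D2:**
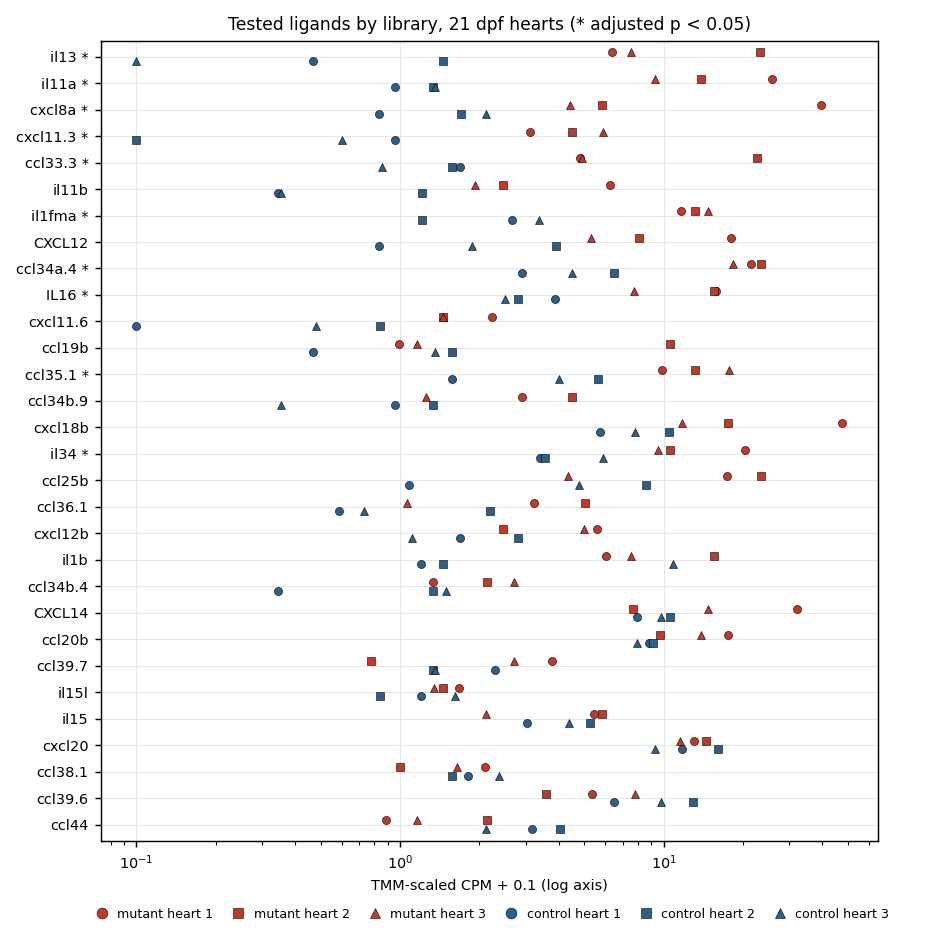
TMM-scaled CPM plus 0.1 (log axis) of the 30 tested ligands in each heart library, red for mutant and blue for control, in order of log2 fold change from the top. An asterisk marks the 10 ligands with an adjusted p under 0.05, for example il11a, with 9.15 to 25.7 CPM in mutants and 0.856 to 1.26 CPM in controls.

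Among chemokine receptors 5 of 12 tested rose in mutant hearts. CXCR4 (ENSDARG00000041959), the receptor of CXCL12, was at 26.3, 22.6 and 33.9 CPM in mutants, against 3.30, 5.06 and 3.53 CPM in controls. The libraries within each group were close together and the groups far apart (log2 2.80, SE 0.28, adjusted p = 0.00064). This call held under all alternatives tried, with a log2 fold change of 2.61 to 3.0 when 1 library was left out. The other ID named CXCR4 (ENSDARG00000057633) was left out by the filter on low counts, with 37 reads in mutants and 9 in controls. The table of names does not say which ID is cxcr4a and which is cxcr4b.

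The gene cxcr3.2 (ENSDARG00000041041) encodes a receptor through which zebrafish macrophages are recruited. Its level was 24.3, 18.7 and 24.1 CPM in mutants, against 4.77, 7.77 and 4.29 CPM in controls. The groups did not overlap, and the rise (log2 1.99, SE 0.29, adjusted p = 0.00383) was called under every alternative tried. Its paralog cxcr3.3, a scavenging receptor in zebrafish, was at 7.05, 4.28 and 3.27 CPM in mutants and 1.1, 1.60 and 2.27 CPM in controls. That difference did not pass the test (log2 1.54, SE 0.48, adjusted p = 0.0867). Another gene, named CXCR3 (ENSDARG00000007358), was at 3.58, 4.16 and 4.33 CPM in mutants and 1.59, 1.73 and 3.53 CPM in controls (adjusted p = 0.317).

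The fish genes ccr12a and ccr12b.2 also rose, and were low in controls. The level of ccr12a (ENSDARG00000038541) was 14.9, 4.84 and 9.82 CPM in mutants, against 1.71, 1.85 and 1.89 CPM in controls (log2 2.43, SE 0.46, adjusted p = 0.0126). That of ccr12b.2 (ENSDARG00000026417) was 3.36, 2.93 and 4.05 CPM in mutants, against 0.122, 0.123 and 0.631 CPM in controls (log2 3.51, SE 0.67, adjusted p = 0.0133). Neither overlapped between the groups. The call of ccr12a was lost without control library 3 (adjusted p = 0.0663) and without both libraries numbered 1 (0.0575). The call of ccr12b.2 was lost without control library 1 (adjusted p = 0.0509), without control library 2 (0.0524) and without both libraries numbered 1 (0.0506), and its log2 fold change was 4.65 without control library 3. The neighbouring name ccr12b.1 had 12 reads in mutants and none in controls. That is 3.43-fold when 3 reads over the control group are taken as the floor, without allowance for counting error.

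CCR9 directs lymphocytes to the thymus and gut in mammals. The tested ID (ENSDARG00000055186) was at 8.84, 24.7 and 5.49 CPM in mutants, against 2.08, 3.70 and 2.27 CPM in controls (log2 2.27, SE 0.57, adjusted p = 0.0397). Every mutant library was above every control, with mutant library 2 the highest, and without it the log2 fold change was 1.42 (adjusted p = 0.114). The call was also lost without any control library (adjusted p 0.0745 to 0.161) and without both libraries numbered 1 (0.0598). The other CCR9 ID (ENSDARG00000099738) was at 0, 33.7 and 0.578 CPM in mutants and 1.1, 1.60 and 0.252 CPM in controls, so that nearly all its reads came from mutant library 2.

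The atypical receptors did not pass the test. ACKR3 (ENSDARG00000058179), which removes CXCL12, was at 47.0, 31.6 and 33.8 CPM in mutants, against 22.8, 27.1 and 25.9 CPM in controls (log2 0.57, SE 0.21, adjusted p = 0.146). Its groups did not overlap. ACKR4 (ENSDARG00000040133), which removes CCL19, CCL21 and CCL25 in mammals, was at 48.2, 47.0 and 22.1 CPM in mutants, against 27.3, 18.2 and 19 CPM in controls (log2 0.86, SE 0.32, adjusted p = 0.141). Without mutant library 3 it was called (log2 1.14, adjusted p = 0.0312). The second ACKR4 ID (ENSDARG00000078729, log2 -0.23, adjusted p = 0.826) and ACKR2 (adjusted p = 0.739) showed overlapping groups. CCR8 was at 2.69, 4.84 and 4.24 CPM in mutants and 0.734, 1.97 and 1.14 CPM in controls, and did not pass the test (log2 1.60, adjusted p = 0.0937).

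**Figure D3:**
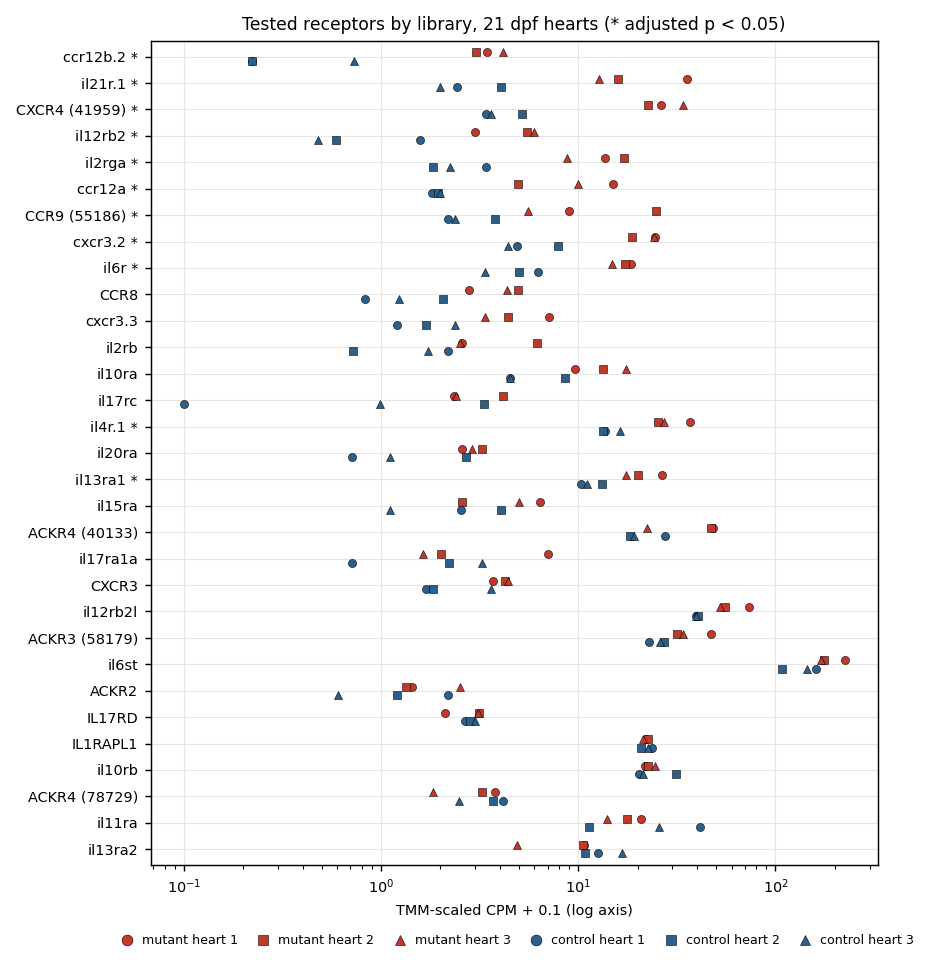
TMM-scaled CPM plus 0.1 (log axis) of the 31 tested receptors in each heart library, red for mutant and blue for control, in order of log2 fold change from the top. An asterisk marks the 11 receptors with an adjusted p under 0.05; CXCR4 has all mutant libraries at 22.6 CPM or more and all controls at 5.06 CPM or less, whereas IL1RAPL1 and il10rb overlap.

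Of the interleukin genes, 5 of 9 tested rose. Of the 2 interleukin genes called under every alternative tried, the larger fold change was that of il11a (ENSDARG00000037859), a cytokine of the IL-6 family that is induced in regenerating zebrafish tissue. Its level was 25.7, 13.8 and 9.15 CPM in mutants, against 0.856, 1.23 and 1.26 CPM in controls. The controls were close together near the limit of the filter, and the lowest mutant library was several times above them (log2 3.84, SE 0.47, adjusted p = 0.00166). Without both libraries numbered 1 the log2 fold change was 3.21. Its paralog il11b was at 6.15, 2.36 and 1.83 CPM in mutants, against 0.245, 1.11 and 0.252 CPM in controls, and did not pass the test (log2 2.65, SE 0.76, adjusted p = 0.0659). The groups of il11b did not overlap, and mutant library 1 was the highest for both paralogs.

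The IL-1 family gene il1fma (ENSDARG00000089383) was even across mutants, at 11.6, 13.1 and 14.6 CPM, against 2.57, 1.11 and 3.28 CPM in controls. The rise (log2 2.49, SE 0.40, adjusted p = 0.00587) was called under every alternative tried. The inflammatory cytokine gene il1b (ENSDARG00000098700) was uneven among the controls. It was at 5.93, 15.4 and 7.42 CPM in mutants and 1.1, 1.36 and 10.8 CPM in controls, so that control library 3 was above mutant libraries 1 and 3 (log2 1.11, SE 0.79, adjusted p = 0.448). Without control library 3 the log2 fold change was 2.94 (adjusted p = 0.0404).

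IL16 (ENSDARG00000102908), known in mammals as a precursor of a chemoattractant that binds CD4, was at 15.7, 15.5 and 7.61 CPM in mutants, against 3.79, 2.71 and 2.40 CPM in controls. The groups did not overlap (log2 2.12, SE 0.38, adjusted p = 0.0101), and the call was lost without control library 3 (adjusted p = 0.0629). The type 2 cytokine gene il13 (ENSDARG00000077809) was at 6.27, 23.1 and 7.42 CPM in mutants, against 0.367, 1.36 and 0 CPM in controls (log2 4.37, SE 0.89, adjusted p = 0.0168). All mutant libraries were several times above the controls, and mutant library 2 was again the highest. Without control library 1, control library 3 or mutant library 2 the adjusted p was 0.054, 0.0559 and 0.0568, with a log2 fold change of 3.55 in the last case. Without control library 2 the log2 fold change was 5.93.

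The gene il34 (ENSDARG00000091003) encodes a ligand of the macrophage receptor CSF1R. It was at 20.3, 10.5 and 9.44 CPM in mutants, against 3.30, 3.45 and 5.80 CPM in controls (log2 1.67, SE 0.40, adjusted p = 0.0317). The groups did not overlap, with mutant library 1 the highest. The call was lost without any control library (adjusted p 0.0626 to 0.0933), without mutant library 1 (log2 1.26, adjusted p = 0.101) and without both libraries numbered 1 (1.11, adjusted p = 0.16). The lymphocyte cytokine genes il15 and il15l showed no such separation. The level of il15 was 5.37, 5.74 and 2.02 CPM in mutants and 2.94, 5.18 and 4.29 CPM in controls (adjusted p = 0.949), and il15l was between 0.740 and 1.57 CPM in all libraries (adjusted p = 0.785).

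Of the interleukin receptor genes 6 of 19 tested rose, which encode chains of the receptors for IL-2, IL-4, IL-13 and IL-21 and for IL-6 and IL-12. The gene il2rga (ENSDARG00000068858) encodes the common gamma chain, which several lymphocyte interleukin receptors share. Its level was 13.5, 16.9 and 8.67 CPM in mutants, against 3.30, 1.73 and 2.14 CPM in controls (log2 2.44, SE 0.39, adjusted p = 0.00585). The IL-21 receptor gene il21r.1 (ENSDARG00000069961) was at 35.5, 15.8 and 12.6 CPM in mutants, against 2.32, 3.95 and 1.89 CPM in controls (log2 2.96, SE 0.47, adjusted p = 0.00587). The IL-6 receptor gene il6r (ENSDARG00000104474) was at 18.5, 17.1 and 14.7 CPM in mutants, against 6.12, 4.93 and 3.28 CPM in controls (log2 1.81, SE 0.29, adjusted p = 0.00642). In all 3 genes the lowest mutant library was above the highest control, and all 3 were called under every alternative tried. For il21r.1 the log2 fold change was 2.3 without both libraries numbered 1.

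Changes in the other called receptors were smaller or less stable. The IL-4 receptor gene il4r.1 (ENSDARG00000102583) was at 36.7, 25.3 and 27.0 CPM in mutants, against 13.6, 13.3 and 16.1 CPM in controls (log2 1.05, SE 0.22, adjusted p = 0.0208). The IL-13 receptor gene il13ra1 (ENSDARG00000080020) was at 26.6, 19.9 and 17.4 CPM in mutants, against 10.2, 13.1 and 11 CPM in controls (log2 0.90, SE 0.24, adjusted p = 0.0498). Neither pair of groups overlapped. The call of il4r.1 was lost without any control library (adjusted p 0.0598 to 0.0733), without mutant library 1 (0.0555) and without both libraries numbered 1 (0.0763). That of il13ra1 was lost under 11 of 13 alternatives, among them the omission of any library (adjusted p 0.0575 to 0.189) and of both libraries numbered 1 (0.203). The IL-12 receptor gene il12rb2 (ENSDARG00000052157) was at 2.91, 5.40 and 5.87 CPM in mutants, against 1.47, 0.493 and 0.378 CPM in controls (log2 2.58, SE 0.61, adjusted p = 0.0314). Without control library 2 or 3 or mutant library 2 or 3 its adjusted p was 0.0958, 0.129, 0.0831 and 0.0945. Its log2 fold change was 3.39 without control library 1 and 3.67 without both libraries numbered 1.

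The interleukin receptors with the most reads did not pass the test. The shared signalling chain gp130, encoded by il6st (ENSDARG00000104693), was at 224, 176 and 169.6 CPM in mutants, against 161, 108 and 144 CPM in controls (log2 0.46, SE 0.21, adjusted p = 0.23). The related gene il12rb2l (ENSDARG00000074850) was at 73.2, 55.2 and 52.4 CPM in mutants, against 39.5, 40.3 and 39.3 CPM in controls (log2 0.60, SE 0.19, adjusted p = 0.0902). Both showed groups that did not overlap and small differences. The IL-10 receptor chain gene il10rb (ENSDARG00000078042) was at 21.7, 22.4 and 24.4 CPM in mutants, against 20.3, 31.2 and 21.2 CPM in controls (log2 -0.09, adjusted p = 0.869). Its partner il10ra, which binds IL-10, was at 9.51, 13.2 and 17.4 CPM in mutants and 4.40, 8.51 and 4.41 CPM in controls (log2 1.21, adjusted p = 0.075). IL1RAPL1, known mainly from synapses, was at 22, 22.4 and 21.1 CPM in mutants and 23.7, 20.7 and 22.4 CPM in controls (adjusted p = 0.95). IL17RD, which encodes an inhibitor of FGF signalling known as Sef in zebrafish, was at 2.01, 3.04 and 2.99 CPM in mutants and 2.57, 2.71 and 2.90 CPM in controls (adjusted p = 0.984). The genes il2rb, il15ra, il17ra1a, il17rc and il20ra had log2 fold changes of 0.82 to 1.32 and did not pass the test (adjusted p 0.225 to 0.571). The decoy receptor gene il13ra2 was the only gene of the 104 with every mutant library below every control library. It was at 10.6, 10.5 and 4.82 CPM in mutants and 12.5, 10.7 and 16.6 CPM in controls, and did not pass the test (log2 -0.62, SE 0.35, adjusted p = 0.323).

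The enzyme gene il4i1 (ENSDARG00000056804), named for its induction by IL-4, encodes a secreted amino acid oxidase of antigen-presenting cells in mammals and is neither a ligand nor a receptor. It was at 17.3, 4.16 and 14.3 CPM in mutants, against 1.1, 0.493 and 0.378 CPM in controls. The mutant libraries differed among themselves, but the lowest was above every control (log2 4.15, SE 0.65, adjusted p = 0.00566). This call held under every alternative tried.

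Set side by side, known ligands and their receptors moved in different combinations. The ligand CXCL12 (ENSDARG00000037116) was at 18.0, 7.99 and 5.2 CPM in mutants, against 0.734, 3.82 and 1.77 CPM in controls (log2 2.29, SE 0.64, adjusted p = 0.0584). It missed the threshold where its receptor CXCR4 passed it, although the groups of CXCL12 did not overlap. CXCL12 was called without control library 2 (adjusted p = 0.0463) or mutant library 3 (0.0479). It was also called with DESeq2 as the test (adjusted p = 0.00373), with library size alone and with no filter. Without both libraries numbered 1 its log2 fold change was 1.25 (adjusted p = 0.22). The second ligand cxcl12b was at 5.48, 2.36 and 4.91 CPM in mutants and 1.59, 2.71 and 1.01 CPM in controls, with overlapping groups (log2 1.26, adjusted p = 0.191). For the pair of ccl25b and CCR9, the ligand was at 17.3, 23.3 and 4.24 CPM in mutants and 0.979, 8.51 and 4.67 CPM in controls (log2 1.66, adjusted p = 0.214). The receptors of cxcl8a were left out by the filter on low counts. The IDs named CXCR1 (ENSDARG00000054975) and cxcr1 (ENSDARG00000052088) had 16 reads each in mutants, against 6 reads of CXCR1 and 1 of cxcr1 in controls.

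For IL-11 the ligand passed the test and the receptor chain did not. While il11a rose, il11ra, which encodes its receptor chain, was at 20.8, 17.6 and 13.9 CPM in mutants and 41.3, 11.2 and 25.5 CPM in controls. The controls of il11ra spanned the mutants, and it did not pass the test (log2 -0.58, SE 0.41, adjusted p = 0.443). For IL-34 the receptor genes are csf1ra and csf1rb. The level of csf1ra was 117, 74.9 and 98.3 CPM in mutants, against 27.6, 23.1 and 20.8 CPM in controls (log2 2.02, SE 0.22, adjusted p = 0.00107). Both il34 and csf1ra were thus called as higher, il34 under 7 of the 13 alternatives. The gene csf1ra is also on the list of macrophage markers. For IL-13, the ligand and the receptor chains il4r.1 and il13ra1 were called as higher and the decoy il13ra2 was not called. Of the 13 alternatives, il13 was called under 10, il4r.1 under 8 and il13ra1 under 2. For IL-6 the receptor il6r rose, while il6 itself had 16 reads in mutants and none in controls. That is 4.58-fold against the floor of 3 reads over the control group, without allowance for counting error. For IL-21, il21r.1 rose, and the ligand il21 was left out by the filter. It had 13 reads in mutants and 2 in controls, a pooled ratio of 5.58 (exact 95% counting interval 1.26 to 50.9). That interval covers counting error only. The groups of il21 overlapped, at 0.895, 0.113 and 0.385 CPM in mutants and 0, 0.123 and 0.126 CPM in controls.

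The filter on low counts left out 42 of the 104 genes. They were 24 ligands with 10 to 73 heart reads and 18 receptors with 12 to 329. The ID with 329 reads was the second CCR9 ID, nearly all of whose reads were in 1 library. None lacked reads in mutants and 4 lacked them in controls. The pooled level was higher in mutants for 39 of the 42, against 52.7% of all genes with at least 10 heart reads. It was lower for il12bb, il12ba and IL10. The 4 without control reads were il6, ccr12b.1, ccl38a.4 and the second ACKR3 ID (ENSDARG00000062478). Against the same floor, ccl38a.4 was 2.86-fold and that ACKR3 ID 6.58-fold higher, without allowance for counting error. Pooled ratios with intervals were computed only for genes with 1 to 3 control reads. The second CCR9 ID, with 305 reads in mutants and 24 in controls, therefore has none. Ratios over 10 were found for ccl39.5 (24.0, exact 95% counting interval 3.97 to 983), ccl20a.3 (16.9, 5.50 to 84.2), cxcr1 (13.7, 2.13 to 576), ccl19a.1 (12.9, 4.13 to 64.8), ccl34a.3 (12.6, 4.04 to 63.4), cxcl11.4 and il17rel (12, 3.03 to 104). The intervals cover counting error only. The ligands ccl34b.1, ccl34b.8, ccl39.2, cxcl19, il12b2 and IL17D had 12 to 26 reads each in mutants and 2 to 16 in controls. The receptors ccr2, ccr8.1, ccr10, CCR6, CCR7, il12rb1, il23r, il2rgb and both IDs named XCR1 had 10 to 40 reads each in mutants and 1 to 16 in controls. The anti-inflammatory cytokine gene IL10 had 5 reads in mutants and 7 in controls, all 7 in control library 3, and il12bb, an IL-12 subunit gene, had 18 in mutants and 26 in controls.

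Several genes owed most of their mutant reads to 1 library. Of the 84 genes with at least 20 reads over the mutant group, 7 were at least 3 times as high in mutant library 1 as in the next mutant library, 7 in mutant library 2 and 0 in mutant library 3. In controls, 3 of 56 such genes stood out in this way, ccl36.1 and il17rc in control library 2 and il1b in control library 3. The share of all genes that stood out in this way was not counted, so these counts are a description only. The genes of mutant library 1 were cxcl8a, cxcl8b.1, cxcl8b.3, ccl20a.3, ccl19a.1, il17ra1a and il17rel. Those of mutant library 2 were the second CCR9 ID, il7, il7r, ccl19b, ccl33.3, cxcl32b.1 and il13. IL-7 and its receptor support developing lymphocytes, and CCL19 guides T cells in mammals. The level of il7 was 0.448, 3.94 and 0.289 CPM in mutants and 0.367, 0.740 and 1.01 CPM in controls. That of il7r was 1.23, 5.18 and 0.482 CPM in mutants and 0, 0.863 and 0.631 CPM in controls. For ccl19b it was 0.895, 10.5 and 1.06 CPM in mutants and 0.367, 1.48 and 1.26 CPM in controls, and its log2 fold change of 1.98 (adjusted p = 0.272) was -0.07 without mutant library 2.

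Mutant library 2 was also the highest of the 6 libraries for 10 of 13 markers of T and NK cells, thymus and gut. Mutant library 1 was the highest for the other 3, which were cd28 (5.37, 3.38 and 2.5 CPM in mutants, 1.59, 1.60 and 0.757 CPM in controls), epcam (100.4, 58.8 and 19.8 CPM in mutants, 3.18, 23.7 and 15.4 CPM in controls) and prf1.1, which had no reads in controls. The T cell kinase gene lck was at 0.112, 32.2 and 0.867 CPM in mutants and 1.47, 2.96 and 1.51 CPM in controls. The cytotoxic T cell gene cd8a was at 0, 6.64 and 0.289 CPM in mutants and listed at 0 in all controls. The thymic epithelial gene foxn1 was at 0.112, 4.05 and 0 CPM in mutants and 0, 0.370 and 0.252 CPM in controls. The intestinal cadherin gene CDH17 was at 4.48, 43.3 and 0.674 CPM in mutants and 0.979, 0.493 and 0.252 CPM in controls. The summed thymus and gut markers were at 117, 142 and 29.0 CPM in mutants and 5.5, 29.1 and 18.4 CPM in controls. Of the 3 tested, 1 was called as higher, the gut gene FABP2 (log2 3.14, edgeR adjusted p = 0.0108). Its groups did not overlap, at 9.62, 19.7 and 7.13 CPM in mutants and 0.734, 2.47 and 0.883 CPM in controls. Of the 7 genes high in mutant library 2, ccl33.3 and il13 were called, and both lost the call without it. The part of these markers in the results was not tested.

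**Figure D4:**
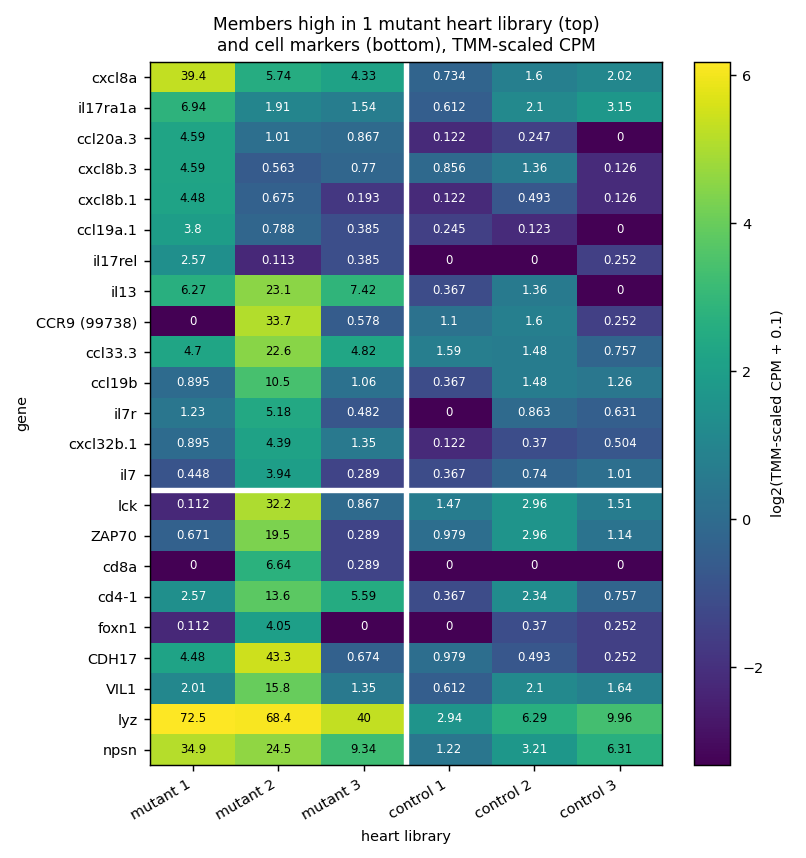
TMM-scaled CPM in each heart library (printed in the cells, colour on a log2 scale of CPM plus 0.1) for the 14 ligands and receptors at least 3 times as high in 1 mutant library as in the next, above the white line, and for 9 cell markers, below it. The first 7 rows are highest in mutant library 1 and the next 7 in mutant library 2, which is also the highest for lck, ZAP70, cd8a and CDH17.

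Some genes that act downstream of these receptors also changed. Of 19 tested JAK-STAT genes 4 rose and 1 fell, and the median log2 fold change was 0.51. Over all 16707 tested genes, beside which this list and those below stand, 7.02% were called as higher and 2.42% as lower. Their median log2 fold change was -0.008. The kinase gene jak3, whose product binds the common gamma chain, was at 13.4, 26.3 and 15.4 CPM in mutants, against 3.18, 3.82 and 4.04 CPM in controls (log2 2.32, SE 0.33, adjusted p = 0.00351). Genes of the list that also rose included the leukocyte phosphatase gene PTPN6 (log2 1.96) and stat2 (1.14). The kinase gene jak2a, which also serves the erythropoietin receptor, fell, with 27.0, 39.7 and 40.1 CPM in mutants, against 106, 159 and 112 CPM in controls (log2 -1.82, adjusted p = 0.00251).

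Of 23 tested genes of IL-1 and NF-kB signalling 5 rose and none fell, with a median of 0.47. They were nfkbiaa (log2 1.52, adjusted p = 0.0126), which encodes an NF-kB inhibitor, the inhibitory kinase gene IRAK3 (1.75), the caspase-1-like gene caspa (1.60), TNFAIP3 (1.35) and irak1 (1.35). Of 19 tested genes of chemokine signalling 6 rose and none fell, with a median of 0.59. They were the leukocyte GTPase gene rac2 (log2 1.93, adjusted p = 0.00517), WAS (2.08), PIK3R5 (1.99) and 1 ID each of PTK2B (ENSDARG00000022841, 1.89), GNAI2 (ENSDARG00000017294, 1.34) and PRKCD (ENSDARG00000070651, 1.29). The second IDs of these symbols were not called. GNAI2 ENSDARG00000018174 was at 174, 157 and 146 CPM in mutants and 159.8, 148 and 152 CPM in controls (log2 0.05), and the second IDs of PTK2B and PRKCD had log2 fold changes of 1.61 and 0.96. Among 18 tested cytokine and receptor genes outside the naming rule 7 rose and none fell, with a median of 0.84. Besides csf1ra they were csf1rb (log2 2.62), CSF3R (2.82), csf1b (2.36), lifrb (2.47), KIT (3.05) and tnfrsf1b (1.32). Genes of leukocytes, such as rac2, WAS, PTPN6 and the receptors csf1ra and CSF3R, are part of these counts, and csf1ra, csf1rb and CSF3R are also on the macrophage and neutrophil lists.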

How the data were processed

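Messenger RNA of 6 heart and 2 embryo-labelled libraries was enriched with oligo(dT) beads, per the labels' protocols. The authors deposited raw counts per gene, without normalisation. The submitters' processing notes name HTSeq 0.6.1p1, Bowtie2 2.2.3, TopHat2 2.2.1, FastQC 0.11.5 and bcl2fastq, and the genome build GRCz10. Neither the annotation release nor the strand setting is given in the sources used. The counter's own lines were left out, and reads in no feature were 42.4% to 48.8% of all lines in heart files. A name table gave symbols to 26121 of 31953 IDs. The 104 members carry 98 distinct symbols, so 12 IDs share theirs with another. Counts of tandem copies are uncertain.

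Mutant hearts were compared with control hearts in R 4.3.3 by edgeR 4.0.16. Genes passed filterByExpr (minimum count 10), were scaled by TMM and were tested by the quasi-likelihood F test with group as the only term. P-values were adjusted by Benjamini-Hochberg over all 16707 genes, and genes under 0.05 were called. The procedure was tested on simulated data. Counting intervals are exact (conditional binomial) at 95%, and a group at 0 was set to a floor of 3 reads over the group.

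Alternatives were DESeq2 1.42.0, DESeq2 size factors, library size alone, no filter, a filter of 1 CPM in 3 libraries, a replicate block, omission of each library, and omission of both libraries numbered 1, making 13. Members, marker lists and signalling lists were chosen with earlier results of these data known. Named in full were all called members and the 3 with the highest mean CPM in each class, and other members were named after their values were seen. Coordinates and sequences were not used here. The values of 1 gene of the signalling lists are not reported here.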

Additional observations from a re-analysis of the deposited data

Results flagged for a closer look

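All 22 called genes were lower in the file labelled as mutant embryo than in the file labelled as control embryo, the reverse of the labels in the hearts. For cxcl8a the levels were 0.597 CPM in the embryo-labelled mutant file and 53.1 CPM in the embryo-labelled control file. The embryo-labelled mutant file shares its total of all lines and its number of reads not uniquely aligned with control heart 1, and the embryo-labelled control file shares both with mutant heart 1. These values are therefore not independent of the pair of hearts numbered 1, and are not a comparison of embryos with hearts. With 1 library of each label the difference was not tested.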

How the results depend on the processing

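Of the 22 called genes, 9 were called under all 13 alternatives: ccl34a.4, CXCR4, cxcr3.2, il11a, il1fma, il2rga, il21r.1, il6r and il4i1. Leaving out 1 library gave 604 to 1302 genes called in all, 4 to 11 ligands and 6 to 10 receptors, with medians of 1.33 to 2.22 for ligands and 1.05 to 1.30 for receptors on the log2 scale. Without both libraries numbered 1, 6 receptors were called and the ligand median was 1.12. With library size alone, which moved the median of all genes to 0.249, the medians were 1.98 for ligands and 1.27 for receptors, 87.5% of all calls were higher (74.4% with TMM), and 4 receptors turned positive: il10rb (0.18), IL17RD (0.22), IL1RAPL1 (0.22) and the second ACKR4 ID (0.05). On leaving out 1 library, 8 genes near 0 or high in 1 library changed sign. Their log2 ranges were -0.21 to 0.13 for il10rb, -0.12 to 0.16 for IL17RD, -0.09 to 0.01 for IL1RAPL1, -0.43 to 0.03 for that ACKR4 ID, -0.16 to 0.42 for il15, -0.11 to 0.30 for cxcl20, -0.16 to 1.33 for il17ra1a and -0.07 to 2.48 for ccl19b. Without both libraries numbered 1, il15 was at -0.27, il17ra1a at -0.59, IL17RD at 0.12 and IL1RAPL1 at 0.03. With no filter the receptor median was 1.30, over all 49 receptors. Other causes were not tested. The deviations of same-numbered mutant and control libraries from their group means had correlations of 0.0955, 0.219 and -0.083. Those of differently numbered libraries were -0.258 to 0.143. Deviations within a group of 3 sum to 0, so these values cannot show whether the numbers pair the libraries. A fit with the replicate number as a block called 1476 of 16707 genes, 7 ligands and 9 receptors (medians 1.63 and 1.03), with il15 at -0.00. In the other alternatives these counts and medians moved by less than 1.5 times or by less than the spread between libraries. Among these, DESeq2 as the test called 13 ligands and 13 receptors, and 2260 of all 16707 tested genes. It added calls of CXCL12 (adjusted p = 0.00373), cxcl18b (0.00844), il11b (0.0149), il10ra (0.0282) and cxcr3.3 (0.0431). Over the 62 tested genes and all alternatives, 707 values kept direction and side of the threshold, 59 lost the call, 19 gained one and 21 changed sign. The test draws in part on the spread of all genes in every fit, and more so with 2 libraries left in an arm. At 7614329 to 9909966 counts per library, 42 of 104 genes fell under the filter. With no filter 13 ligands and 10 receptors were called, beside 1309 genes called as higher and 459 as lower of all 25309 tested.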
